A study of Homo sapiens with 9 samples.

Results

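The 34 genes described here are the core of the Hippo pathway and a set of genes that its coactivators switch on. They were chosen by symbol from 67140 genes in the count table: 2 coactivators, 4 TEAD transcription factors, 7 genes of the kinase core, 6 upstream or scaffold genes and 15 target genes. All 34 passed the filter on low counts and were tested, and CRIM1 has a second identifier in the table that holds no counts. The RNA came from DMS273 cells, a line established from human small cell lung cancer, in 9 libraries made after rRNA depletion. Control cells carried a scrambled guide and are labelled wild type. ATG7 KO cells carried a CRISPRv2 knockout of ATG7, an enzyme needed to form autophagosomes. ATG7/SQSTM1 KO cells carried knockouts of ATG7 and of SQSTM1, whose product p62 is an autophagy receptor and signalling scaffold. Each group has 3 libraries, and no drug or other treatment is given for any of them. The labels do not say whether a group is 1 clone or a pool, whether its libraries come from separate cultures, or whether the ATG7/SQSTM1 KO cells were derived from the ATG7 KO cells. The p-values therefore measure the spread between these libraries, which may be technical.

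In the Hippo pathway the kinases STK3 and STK4, with their scaffold SAV1, activate the kinases LATS1 and LATS2, which work with MOB1A and MOB1B. Active LATS kinases phosphorylate YAP1 and WWTR1 (the gene of TAZ), which are then held in the cytoplasm or degraded. When the kinases are inactive, YAP1 and TAZ enter the nucleus, bind TEAD factors and raise transcription of genes for the matrix, the cytoskeleton and growth. In small cell lung cancer, YAP1 is known to be low or absent in most neuroendocrine tumours and present in non-neuroendocrine ones. Much of the pathway acts through phosphorylation and localisation, which RNA levels do not measure.

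Library totals ran from 28675576 to 34222098 counts, of which mitochondrially encoded genes made up 3.87% to 6.04%. ATG7 averaged 27.1 CPM (counts scaled to library size with TMM factors) in control, 11.6 in ATG7 KO and 10.6 in ATG7/SQSTM1 KO. SQSTM1 averaged 376, 390.4 and 51.8 CPM in the same order. Both targeted transcripts were thus lowest in the libraries labelled as their knockouts. All 8 neuroendocrine markers checked had counts, with NEUROD1 at 194 CPM in control.

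In ATG7 KO against control, 17 members were higher and 9 were lower at a Benjamini-Hochberg adjusted p under 0.05 (76.5% of 34), from edgeR's quasi-likelihood test fitted to all 18847 tested genes. Over all those genes 56.7% passed, 28.4% higher and 28.3% lower. The members were more abundant, with a median of mean CPM of 29.6 beside 14.4 over all tested genes. The part of abundance in the shares called, here and in the other comparisons, was not tested. The median log2 change was 0.12 over the members and −0.02 over all tested genes. In 26 of 34 members the libraries of the groups did not overlap, beside 62.4% of all genes. Among the members, 8 were called with a rise of 2-fold or more and 2 with a fall of that size, where all genes gave 4.22% and 8.28%. The members at least 2-fold higher were YAP1, AMOTL2 and the targets CPA4, NT5E, ANKRD1, CCN1, F3 and NUAK2. The members at least 2-fold lower were AMOTL1 and DLC1.

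In ATG7/SQSTM1 KO against control, 17 members were higher and 6 lower (67.6% of 34), beside 38.6% called over all genes, 19.0% higher and 19.6% lower. The median log2 change was 0.18 over the members and −0.01 over all tested genes. The targets CPA4, CCN1 and ANKRD1 rose by 2-fold or more, and no member fell by that much, where all genes gave 2.2% and 1.66%. The groups did not overlap in 24 of 34 members, beside 48.8% of all genes. In ATG7/SQSTM1 KO against ATG7 KO, 14 members were higher and 13 lower (79.4% of 34), beside 60.5% of all genes, 30.5% higher and 29.9% lower. The median log2 change there was 0.00 over the members and 0.02 over all tested genes, and the groups did not overlap in 29 of 34 members, beside 65.9%. DLC1 and AMOTL1 were at least 2-fold higher and YAP1, F3 and NT5E at least 2-fold lower, where all genes gave 9.07% and 3.86%. The 3 comparisons share libraries in pairs, so their values for a gene are given side by side and are not independent of each other.

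**Figure D1:**
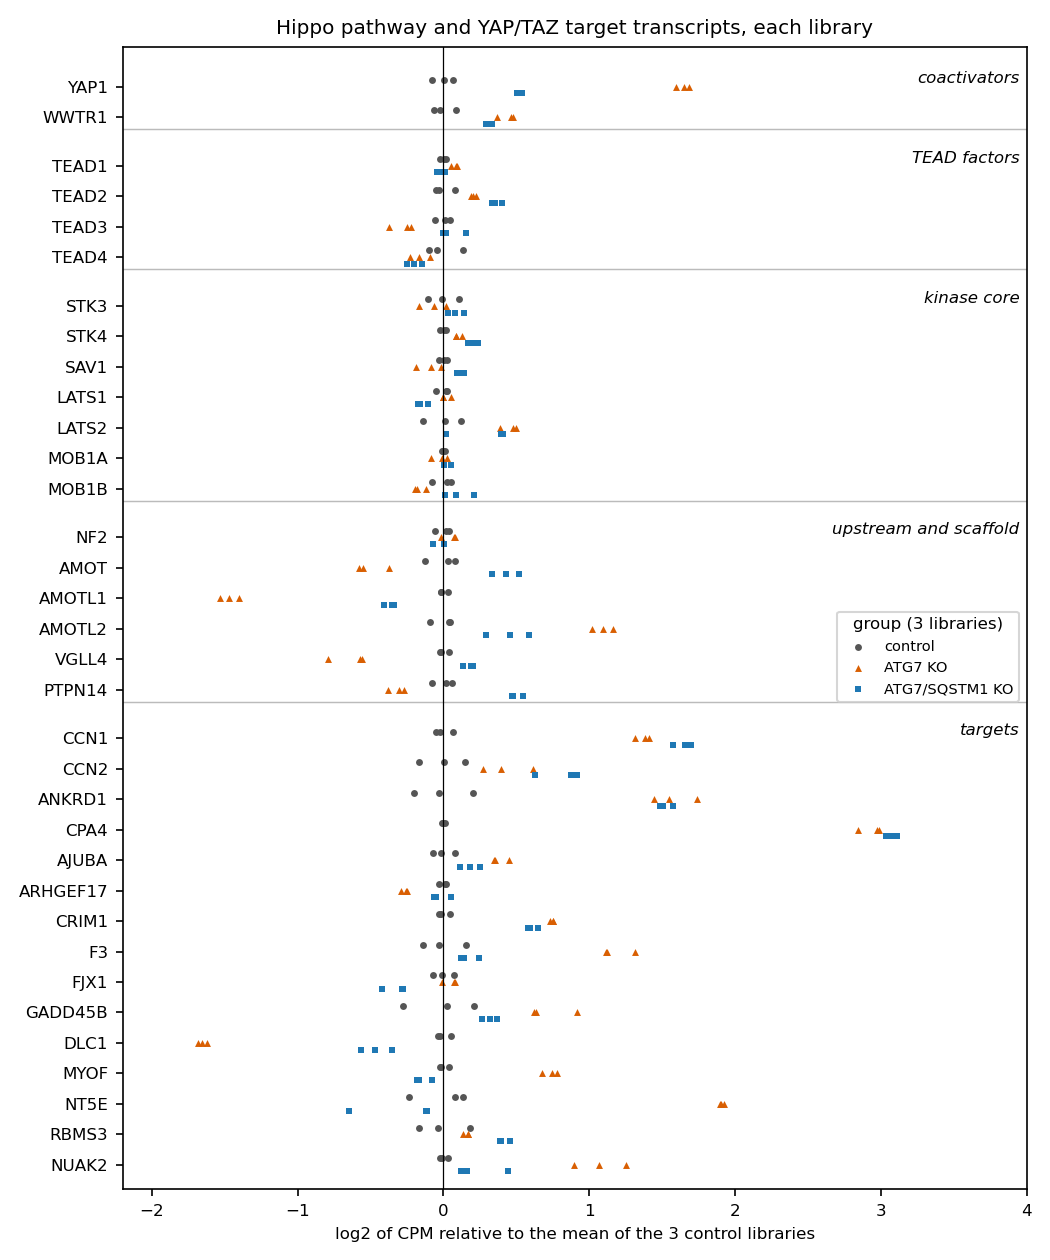
Each row is 1 of the 34 genes and each point 1 library, plotted as the log2 of its CPM relative to the mean of the 3 control libraries (horizontal axis), with circles for control, triangles for ATG7 KO and squares for ATG7/SQSTM1 KO. YAP1, CPA4, NT5E and CCN1 lie far to the right in ATG7 KO and AMOTL1 and DLC1 far to the left. The squares of NT5E overlap the control points, and those of YAP1 lie between control and ATG7 KO. Those of CPA4, CCN1 and ANKRD1 lie far to the right of control.

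Both coactivator transcripts rose in both knockouts. YAP1 (ENSG00000137693, chromosome 11, 102110461 to 102233423, plus strand, GRCh38) was measured at 30.2, 31.9 and 33.3 CPM in the libraries of control, at 99.6, 102 and 95.9 in ATG7 KO and at 46.1, 45.1 and 46.1 in ATG7/SQSTM1 KO. The groups did not overlap: control was lowest, the double knockout in between and ATG7 KO highest. YAP1 was 3.12-fold higher in ATG7 KO than in control (log2 change 1.64, SE 0.042, adjusted p = 4.02e-18) and 1.44-fold higher in ATG7/SQSTM1 KO (log2 change 0.53, adjusted p = 3.96e-09). Between the knockouts it was 2.17-fold lower in ATG7/SQSTM1 KO (log2 change −1.12, adjusted p = 1.47e-15).

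WWTR1 stood at 81.3, 75.1 and 73.1 CPM in control, at 98.5, 107 and 105 in ATG7 KO and at 93.8, 93.5 and 96.4 in ATG7/SQSTM1 KO. Its libraries fell in the same order of groups as those of YAP1, over a narrower range. The rise was 1.35-fold in ATG7 KO (adjusted p = 8.64e-09) and 1.24-fold in ATG7/SQSTM1 KO (adjusted p = 3.84e-06). The difference between the knockouts was −0.13 on the log2 scale (adjusted p = 8.95e-03), and scaling by library totals in place of TMM ended that call (adjusted p = 0.0545). Per kilobase of exon, YAP1 and WWTR1 together came to 14.1 CPM in control, 28.1 in ATG7 KO and 18.5 in ATG7/SQSTM1 KO. YAP1 made up 35.7% ± 2.4 (SD, n = 3) of that sum in control, 56.2% ± 1.3 in ATG7 KO and 39.3% ± 0.33 in ATG7/SQSTM1 KO. WWTR1 was thus the more abundant transcript per length in control and in the double knockout, and YAP1 in ATG7 KO.

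**Figure D2:**
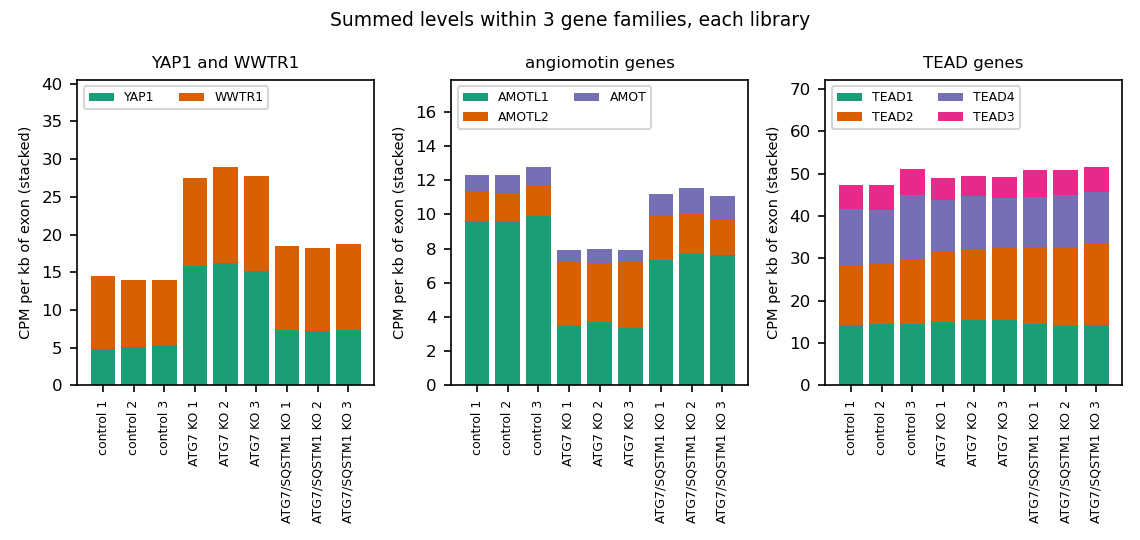
Stacked bars give the level per kilobase of exon (CPM per kb, linear axis from 0) of YAP1 and WWTR1, of the 3 angiomotin genes and of the 4 TEAD genes, with 1 bar for each of the 9 libraries. The summed coactivator level was highest and the summed angiomotin level lowest in the 3 ATG7 KO libraries, while the TEAD sum averaged 48.6, 49.2 and 51.1 CPM per kb in control, ATG7 KO and ATG7/SQSTM1 KO.

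The 4 nearest tested protein-coding genes on each side of YAP1 did not move as a block. Those upstream lie from 25901 bases (CFAP300) to 1116520 (ARHGAP42) and 1751576 bases (CNTN5) away, and those downstream up to 287085 bases (MMP7). Upstream of YAP1, CFAP300 was higher in ATG7 KO than in control (3.12 against 1.08 CPM, log2 change 1.52, adjusted p = 1.43e-06) and ARHGAP42 lower (log2 change −0.59, adjusted p = 8.95e-09). CEP126 and CNTN5 were not called there. Downstream, the apoptosis inhibitors BIRC3 and BIRC2 were higher by 0.73 and 0.16, TMEM123 was higher by 0.11, and the matrix protease MMP7 was lower (log2 change −0.58, adjusted p = 0.0369). The MMP7 call was lost without control replicates 1, 2 or 3 or ATG7 KO replicates 1 or 2 (adjusted p = 0.0671 to 0.136), in DESeq2 (adjusted p = 0.129) and with no filter on low counts (adjusted p = 0.0871). CFAP300, the nearest, was the only neighbour that went the way of YAP1 in all 3 comparisons. It was higher in ATG7/SQSTM1 KO than in control (log2 change 0.72, adjusted p = 8.77e-03) and lower than in ATG7 KO (−0.80, adjusted p = 1.14e-03). BIRC3 was also lower in the double knockout than in ATG7 KO (−1.26, adjusted p = 8.46e-10). Against control BIRC3 was lower there (log2 change −0.54, adjusted p = 3.28e-04), where YAP1 was higher. In the double knockout MMP7, at 0.22 CPM, was lower than in control (−2.95, adjusted p = 4.3e-08) and than in ATG7 KO (−2.37, adjusted p = 4.69e-07).

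The 4 TEAD genes, which encode the DNA-binding partners of YAP1 and TAZ, were not 2-fold different in any comparison. Per kilobase of exon TEAD1, TEAD2 and TEAD4 were at similar levels in control, at 14.4, 14.5 and 13.8 CPM per kb, and TEAD3 at 5.88. TEAD2 rose in both knockouts. It stood at 42.3, 41.7 and 45.7 CPM in control, at 49.7, 49.4 and 50.6 in ATG7 KO and at 54.4, 55.2 and 57.2 in ATG7/SQSTM1 KO, with no overlap between groups. The rise was 1.15-fold in ATG7 KO (adjusted p = 2.76e-04) and 1.29-fold in ATG7/SQSTM1 KO (adjusted p = 5.53e-07). TEAD2 went from 29.8% of the summed TEAD level in control to 34.1% in ATG7 KO and 36.5% in ATG7/SQSTM1 KO. Its exons overlap those of CD37 on the opposite strand over 319 bases, and CD37 had 724 counts in all against 13823 for TEAD2.

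TEAD3 was lowest in ATG7 KO, at 15.3, 13.8 and 15 CPM, against 17.2, 18.1 and 18.5 in control and 19.9, 17.9 and 18.1 in ATG7/SQSTM1 KO. It was 1.22-fold lower in ATG7 KO than in control (adjusted p = 1.47e-03) and 1.27-fold higher in the double knockout than in ATG7 KO (adjusted p = 2.03e-04). The double knockout libraries overlapped control, with a log2 difference of 0.06 (95% confidence interval −0.08 to 0.20). TEAD1 averaged 148, 157 and 147 CPM in control, ATG7 KO and ATG7/SQSTM1 KO. Its log2 difference of 0.08 in ATG7 KO against control (adjusted p = 0.0267) was lost under library totals (adjusted p = 0.308), without control replicate 1 (adjusted p = 0.0611) and without ATG7 KO replicate 2 (adjusted p = 0.053). That of −0.09 between the knockouts (adjusted p = 8.84e-03) was lost under library totals (adjusted p = 0.108).

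TEAD4 was slightly below control in both knockouts, and neither call held throughout. Its libraries stood at 30.4, 29.3 and 34.4 CPM in control, at 28, 29.4 and 26.8 in ATG7 KO and at 26.4, 28.4 and 27.3 in ATG7/SQSTM1 KO, and ATG7 KO overlapped control. The log2 differences were −0.16 (adjusted p = 0.0245) and −0.20 (adjusted p = 0.0108). The first was lost without control replicate 3 or ATG7 KO replicates 1 or 3 (adjusted p = 0.0733 to 0.206) and in DESeq2 (adjusted p = 0.0787). The second was lost without control replicate 3 (adjusted p = 0.105) and without ATG7/SQSTM1 KO replicate 1 (adjusted p = 0.0625).

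Among the 7 kinase core genes 2 were higher and 1 lower in ATG7 KO against control, 3 higher and 1 lower in ATG7/SQSTM1 KO against control, and 3 higher and 1 lower between the knockouts. These are shares of 42.9%, 57.1% and 57.1%, beside 56.7%, 38.6% and 60.5% of all genes. None was 2-fold different in any comparison, and the largest difference was that of LATS2. LATS2, a kinase that is itself a known YAP target, stood at 6.49, 7.78 and 7.2 CPM in control, at 10.1, 9.95 and 9.37 in ATG7 KO and at 7.25, 9.43 and 9.49 in ATG7/SQSTM1 KO. All ATG7 KO libraries were above control, and 1 of the 3 double knockout libraries lay within the control range. LATS2 was 1.37-fold higher in ATG7 KO (log2 change 0.45, SE 0.11, adjusted p = 1.06e-03). Its log2 difference of 0.28 in the double knockout (adjusted p = 0.042) was lost without control replicates 1 or 3, ATG7 KO replicate 2 or ATG7/SQSTM1 KO replicates 2 or 3 (adjusted p = 0.0535 to 0.187), in a fit of the 6 libraries compared (adjusted p = 0.0539) and in DESeq2 (adjusted p = 0.0814).

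LATS1, the more abundant LATS transcript per kilobase, was lower in the double knockout, at 48.3, 48.8 and 50.8 CPM, than in control, at 55.4, 52.8 and 55.7, or ATG7 KO, at 54.4, 56.6 and 54.6. It was 1.11-fold lower than control (adjusted p = 4.62e-03) and 1.12-fold lower than ATG7 KO (adjusted p = 1.18e-03). LATS2 made up 16.9% ± 1.6 (SD, n = 3) of the summed LATS level per kilobase in control, 21.6% ± 0.66 in ATG7 KO and 21.4% ± 2.3 in ATG7/SQSTM1 KO. STK4 rose stepwise over the groups, at 65.5, 66.2 and 64.4 CPM in control, 69.5, 71.6 and 69.4 in ATG7 KO and 73.5, 77.2 and 75.6 in ATG7/SQSTM1 KO. It was 1.15-fold higher in the double knockout than in control (adjusted p = 6.74e-05). Its difference of 0.10 between ATG7 KO and control (adjusted p = 0.0176) was lost under library totals (adjusted p = 0.163), without control replicate 3 (adjusted p = 0.0649) and without ATG7 KO replicate 2 (adjusted p = 0.0565). Its difference of 0.10 between the knockouts (adjusted p = 0.0134) was lost in DESeq2 (adjusted p = 0.0612) and without ATG7 KO replicates 1 or 3 or ATG7/SQSTM1 KO replicates 2 or 3 (adjusted p = 0.0509 to 0.0884).

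SAV1 and MOB1B were each higher in the double knockout than in ATG7 KO. SAV1 averaged 48.9, 45.8 and 52.8 CPM in control, ATG7 KO and ATG7/SQSTM1 KO, a 1.15-fold difference between the knockouts (adjusted p = 3.12e-04). Its difference of 0.11 from control in the double knockout (adjusted p = 0.0433) was lost under library totals (adjusted p = 0.0556), in DESeq2 (adjusted p = 0.0922) and without control replicates 2 or 3 or any 1 of the ATG7/SQSTM1 KO libraries (adjusted p = 0.0667 to 0.138). Its difference of −0.09 in ATG7 KO was not called (adjusted p = 0.0757), and was called under library totals (adjusted p = 0.0129) and without ATG7 KO replicate 3 (adjusted p = 0.0327). SAV1 exons overlap those of ATL1 on the opposite strand over 840 bases. MOB1B exons overlap those of DCK on the same strand over 199 bases, and DCK had 10825 counts in all against 7266 for MOB1B. MOB1B averaged 26.3, 23.5 and 28.3 CPM, a 1.21-fold difference between the knockouts (adjusted p = 4.71e-04). Its difference of −0.16 in ATG7 KO against control (adjusted p = 0.0234) was lost in DESeq2 (adjusted p = 0.0813) and without control replicates 1 or 2 or ATG7 KO replicates 1 or 3 (adjusted p = 0.0677 to 0.116).

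MOB1A and STK3 were not called in any comparison. MOB1A, the most abundant member per length at 41.2 CPM per kb in control, averaged 265, 261 and 269 CPM. Its 95% confidence intervals ran from −0.08 to 0.04 in ATG7 KO against control and from −0.04 to 0.08 in ATG7/SQSTM1 KO against control. Between the knockouts its log2 difference was 0.04 (adjusted p = 0.202), and library totals made that a call (adjusted p = 0.0186). MOB1A held 93.2%, 93.8% and 92.9% of the summed MOB1 level in the 3 groups, and how the counting treated reads shared by these close paralogs is not given in the sources used here. STK3 averaged 18, 17.1 and 19.0 CPM, and STK4 held 83.5%, 85.0% and 84.6% of their summed level. The STK3 difference of 0.15 between the knockouts (adjusted p = 0.0689) was called without ATG7 KO replicate 3 (adjusted p = 0.0456), under library totals (adjusted p = 0.0268) and with a minimum mean of 1 CPM (adjusted p = 0.0466).

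**Figure D3:**
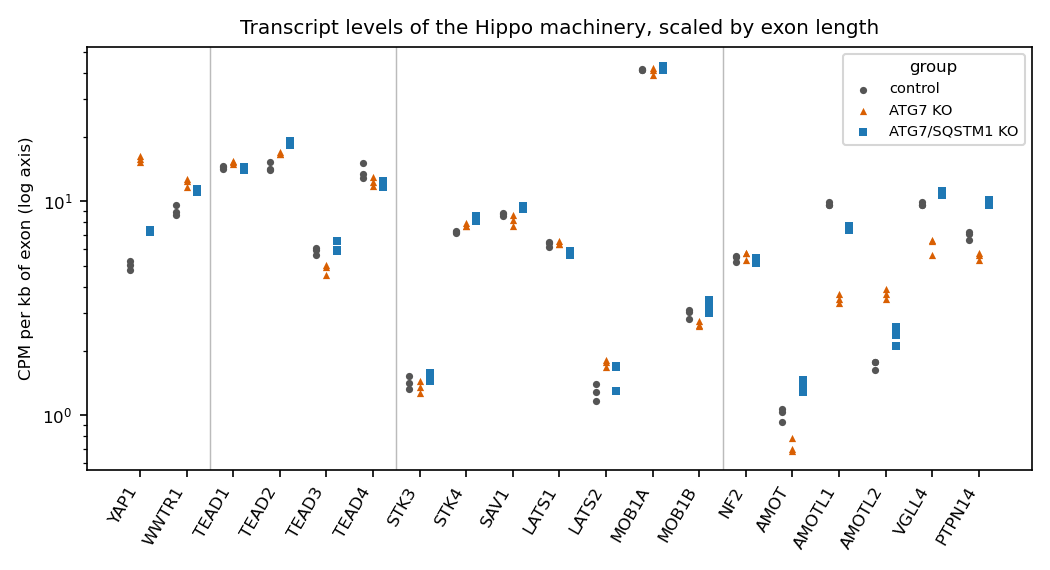
Points give each library's level per kilobase of exon (CPM per kb, log axis) for the coactivators, TEAD factors, kinase core and upstream genes, with circles for control, triangles for ATG7 KO and squares for ATG7/SQSTM1 KO. MOB1A is the highest in all groups, and the 3 groups of YAP1, AMOTL1, AMOTL2, VGLL4 and PTPN14 do not overlap.

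Of the 6 upstream and scaffold genes AMOT, VGLL4 and PTPN14 lay below control in ATG7 KO and above it in the double knockout. In ATG7 KO 1 of the 6 was higher and 4 were lower than in control, and in ATG7/SQSTM1 KO 4 were higher and 1 was lower. Between the knockouts 4 were higher and 1 was lower in the double knockout. That is 83.3% called in each comparison, beside 56.7%, 38.6% and 60.5% of all genes. NF2, the gene of the upstream regulator merlin, was the gene not called in any of them, with means of 38.9, 40.1 and 38.3 CPM and confidence intervals within −0.16 and 0.14 on the log2 scale.

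The angiomotins, which bind YAP1 and TAZ and hold them at junctions and in the cytoplasm, moved in different directions in ATG7 KO. AMOTL1 stood at 96.5, 96.3 and 99.6 CPM in control, at 35.1, 37.0 and 33.8 in ATG7 KO and at 73.6, 77.2 and 76.4 in ATG7/SQSTM1 KO. The groups did not overlap, and the order was the reverse of that of YAP1. AMOTL1 was 2.76-fold lower in ATG7 KO than in control (log2 change −1.47, SE 0.040, adjusted p = 9.53e-18) and 1.29-fold lower in ATG7/SQSTM1 KO (adjusted p = 1.09e-07). It was 2.15-fold higher in the double knockout than in ATG7 KO (adjusted p = 1.31e-15).

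AMOTL2, which is also a known YAP target, went the other way. It stood at 10.6, 9.71 and 10.7 CPM in control, at 22.1, 20.9 and 23.2 in ATG7 KO and at 15.5, 14.2 and 12.7 in ATG7/SQSTM1 KO. The groups did not overlap, and they ranked as those of YAP1 did. The rise was 2.13-fold in ATG7 KO (log2 change 1.09, SE 0.079, adjusted p = 1.18e-10) and 1.37-fold in ATG7/SQSTM1 KO (adjusted p = 1.21e-04), and the knockouts differed by −0.64 (adjusted p = 2.44e-07).

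AMOT differed from both, lowest in ATG7 KO and highest in the double knockout. Its libraries stood at 7.93, 9.16 and 8.86 CPM in control, at 5.90, 6.67 and 5.80 in ATG7 KO and at 10.9, 12.4 and 11.6 in ATG7/SQSTM1 KO, with no overlap. AMOT was 1.41-fold lower in ATG7 KO (adjusted p = 1.56e-04) and 1.35-fold higher in ATG7/SQSTM1 KO (adjusted p = 8.11e-04), each against control, and the knockouts differed by 0.93 (adjusted p = 2.78e-08). Summed per kilobase of exon, the 3 angiomotins came to 12.5 CPM in control, 7.93 in ATG7 KO and 11.3 in ATG7/SQSTM1 KO. AMOTL1 made up 78% ± 0.11 (SD, n = 3) of that sum in control, 44.3% ± 1.9 in ATG7 KO and 66.9% ± 1.6 in ATG7/SQSTM1 KO. The AMOTL2 share was 13.9%, 46.6% and 20.9%, so that AMOTL1 was ahead of AMOTL2 in control and the double knockout and level with it in ATG7 KO.

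VGLL4 and PTPN14, both known to restrain YAP activity, were lower than control in ATG7 KO and higher in the double knockout. Like AMOTL2 and LATS2, PTPN14 is also a known YAP target. PTPN14, a phosphatase that binds YAP1, stood at 123, 132 and 135 CPM in control, at 99.7, 105 and 108 in ATG7 KO and at 179.9, 190.1 and 181 in ATG7/SQSTM1 KO. The groups did not overlap. PTPN14 was 1.25-fold lower in ATG7 KO (log2 change −0.32, SE 0.038, adjusted p = 4.45e-07) and 1.41-fold higher in ATG7/SQSTM1 KO (log2 change 0.50, adjusted p = 1.66e-09). The knockouts differed by 0.81 (adjusted p = 1.45e-13).

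VGLL4, which competes with YAP1 for TEAD factors, stood at 69.3, 69.7 and 72.2 CPM in control, at 47.9, 47.5 and 40.7 in ATG7 KO and at 80.4, 77.3 and 81.1 in ATG7/SQSTM1 KO. Its groups did not overlap either. It was 1.55-fold lower in ATG7 KO (log2 change −0.64, SE 0.050, adjusted p = 3.02e-09), 1.13-fold higher in ATG7/SQSTM1 KO (adjusted p = 7.08e-03), and differed by 0.81 between the knockouts (adjusted p = 6.66e-11). VGLL4 lies beside ATG7 on chromosome 3, and their exons overlap on opposite strands from 11556070 to 11557665 (GRCh38), over 1596 bases or 22.06% of VGLL4 exon sequence. The libraries keep strand, per the labels' protocols, but the strand setting of the counting is not given in the sources used here, so how reads from that stretch were assigned is not known. Summed over the libraries VGLL4 had 18218 counts and ATG7 4587, and ATG7 was lower than control in both knockouts while VGLL4 was lower in ATG7 KO and higher in the double knockout.

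Of the 15 target genes 10 were higher and 2 lower in ATG7 KO against control (80.0%, beside 56.7% of all genes), with a median log2 change of 0.73. In ATG7/SQSTM1 KO against control 7 were higher and 3 lower (66.7%, beside 38.6%), with a median of 0.25. Between the knockouts 5 were higher and 8 lower (86.7%, beside 60.5%), with a median of −0.14. All of these genes are known to respond to YAP1 or TAZ in other cells, and most have further regulators.

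The stretch just upstream of a target gene is where TEAD factors are known to bind in the best-studied cases, often beside AP-1, and the sequences were searched for both motifs. Of the 34 genes 27 have an entry in the RefSeq promoter table (GRCh38.p14), and TEAD1, TEAD4, STK3, CCN1, ARHGEF17, CRIM1 and DLC1 do not. The 250 bases before the first listed start were searched on both strands for the TEAD motif GGAATG, which on the other strand is read as CATTCC. They were also searched for the AP-1 pattern TGANTCA, which reads the same on both strands. N was allowed to be any base, so matches include TGATTCA in ANKRD1 and MOB1B and TGAATCA in F3. For members including WWTR1, LATS1, AMOTL1, VGLL4, RBMS3, NT5E and PTPN14 that start lies inside the gene as annotated in GENCODE. Their windows therefore do not lie before the outermost annotated start. The windows of ANKRD1, CPA4, F3 and NUAK2 overlap the annotated gene in part. The TEAD motif was found in 6 of 27 members (22.2%), beside 11.9% of 27305 genes with an entry, and the AP-1 motif in 4 of 27 (14.8%), beside 6.6%. At least 2 TEAD matches were found in 0.963% of all these genes, and among the members in CCN2, ANKRD1 and NUAK2. At least 2 AP-1 matches were found in 0.385%, and among the members in CPA4 and F3. YAP1 and PTPN14 held 1 TEAD match each and MOB1B 1 AP-1 match. The sequences below are those of the targets with matches, chosen by the match and not by the size of their differences, and of YAP1. They are shown so that the matches can be read in their place. They are written 5′ to 3′ along the gene's strand, with motif matches in capitals and no match sharing bases with another.
CCN2, chr6:131951373-131951622, minus strand: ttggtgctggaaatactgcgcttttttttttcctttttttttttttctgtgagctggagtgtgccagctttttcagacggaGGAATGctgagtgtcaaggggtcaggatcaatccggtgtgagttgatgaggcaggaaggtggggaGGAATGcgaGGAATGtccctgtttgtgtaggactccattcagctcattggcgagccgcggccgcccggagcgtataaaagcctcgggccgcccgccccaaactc
ANKRD1, chr10:90921088-90921337, minus strand: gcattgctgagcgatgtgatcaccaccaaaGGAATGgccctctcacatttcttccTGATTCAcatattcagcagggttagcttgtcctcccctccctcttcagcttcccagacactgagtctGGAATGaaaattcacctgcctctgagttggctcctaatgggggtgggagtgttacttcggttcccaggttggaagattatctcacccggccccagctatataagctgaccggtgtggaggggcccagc
CPA4, chr7:130292911-130293160, plus strand: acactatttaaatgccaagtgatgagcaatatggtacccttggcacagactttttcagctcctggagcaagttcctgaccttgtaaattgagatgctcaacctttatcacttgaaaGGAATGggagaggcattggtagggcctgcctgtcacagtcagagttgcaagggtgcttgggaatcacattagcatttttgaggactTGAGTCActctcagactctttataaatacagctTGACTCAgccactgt
NUAK2, chr1:205321746-205321995, minus strand: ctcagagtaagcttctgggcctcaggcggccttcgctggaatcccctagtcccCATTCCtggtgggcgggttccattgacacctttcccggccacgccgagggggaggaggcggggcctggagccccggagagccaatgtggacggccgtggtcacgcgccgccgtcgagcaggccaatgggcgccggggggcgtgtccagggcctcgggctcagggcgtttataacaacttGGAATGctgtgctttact
F3, chr1:94541760-94542009, minus strand: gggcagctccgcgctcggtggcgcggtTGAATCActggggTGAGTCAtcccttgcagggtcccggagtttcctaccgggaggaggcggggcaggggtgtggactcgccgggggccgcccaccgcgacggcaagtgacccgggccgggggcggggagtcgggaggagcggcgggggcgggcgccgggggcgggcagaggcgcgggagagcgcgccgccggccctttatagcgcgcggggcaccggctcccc
YAP1, chr11:102110197-102110446, plus strand: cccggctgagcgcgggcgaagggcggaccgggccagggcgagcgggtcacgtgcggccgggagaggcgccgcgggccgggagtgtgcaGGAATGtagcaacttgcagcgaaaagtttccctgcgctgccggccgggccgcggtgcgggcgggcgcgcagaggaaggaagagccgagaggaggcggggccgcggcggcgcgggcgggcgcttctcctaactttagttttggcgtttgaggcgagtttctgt
CCN2 holds 3 TEAD matches, the last pair 9 bases apart. ANKRD1 holds 2 TEAD matches with an AP-1 match between them, and CPA4 has 1 TEAD match followed by 2 AP-1 matches near the start. NUAK2 holds 2 TEAD matches and no AP-1 match, and F3 2 AP-1 matches and no TEAD match. A match describes the letters in this window and not binding, which was not measured.

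**Figure D4:**
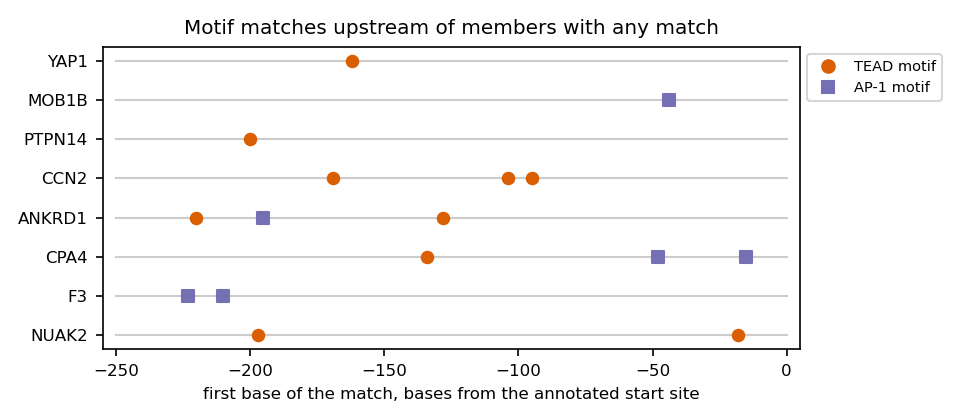
Each line is the 250 bases upstream of 1 member's annotated start (horizontal axis, bases from the start), with circles at TEAD motif matches and squares at AP-1 motif matches, for the 8 members with any match. CPA4 has AP-1 matches at −48 and −15, and CCN2 has TEAD matches at −169, −104 and −95.

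Grouped by their values, a first set of targets was above control in both knockouts, although CCN2 was not called in ATG7 KO. CPA4, which encodes a secreted carboxypeptidase, stood at 5.37, 5.30 and 5.31 CPM in control, at 42.2, 41.9 and 38.2 in ATG7 KO and at 46.0, 43.6 and 44.9 in ATG7/SQSTM1 KO. All 6 knockout libraries were far above control. CPA4 was 7.65-fold higher in ATG7 KO (log2 change 2.94, SE 0.061, adjusted p = 1.77e-19) and 8.42-fold higher in ATG7/SQSTM1 KO (log2 change 3.07, SE 0.061, adjusted p = 3.48e-19). The log2 difference of 0.14 between the knockouts (adjusted p = 0.0179) was lost in DESeq2 (adjusted p = 0.0844) and without ATG7 KO replicate 3 or ATG7/SQSTM1 KO replicates 1 or 3 (adjusted p = 0.0566 to 0.166).

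CCN1, a secreted matrix protein and one of the most used readouts of YAP1, stood at 16.8, 17.1 and 18.2 CPM in control, at 43.2, 46.2 and 45.3 in ATG7 KO and at 54.7, 51.6 and 56.2 in ATG7/SQSTM1 KO. The groups did not overlap, and the double knockout was highest. The rise was 2.59-fold in ATG7 KO (adjusted p = 1.31e-15) and 3.12-fold in ATG7/SQSTM1 KO (adjusted p = 3.82e-16), and the knockouts differed by 0.27 (adjusted p = 2.37e-05). CCN1 was thus higher in the double knockout than in ATG7 KO, while YAP1 was lower.

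CCN2, the other widely used readout and a close relative of CCN1, was low throughout. It stood at 1.59, 1.76 and 1.41 CPM in control, at 2.08, 1.91 and 2.42 in ATG7 KO and at 2.45, 2.98 and 2.90 in ATG7/SQSTM1 KO, with no overlap between groups. It was 1.75-fold higher in the double knockout than in control (log2 change 0.81, SE 0.18, adjusted p = 1.16e-03). In ATG7 KO the log2 difference was 0.43 (SE 0.18, adjusted p = 0.0505), and 4 alternatives made it a call: relative log expression size factors (adjusted p = 0.0441), a minimum mean of 1 CPM (adjusted p = 0.0485), and leaving out control replicate 2 (adjusted p = 0.0479) or ATG7 KO replicate 2 (adjusted p = 0.0415). Per kilobase of exon CCN1 held 91.2%, 95.2% and 94.9% of the summed level of CCN1 and CCN2 in control, ATG7 KO and ATG7/SQSTM1 KO.

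ANKRD1, an ankyrin repeat protein of muscle and a strong YAP1 target, stood at 2.77, 3.27 and 2.46 CPM in control, at 8.28, 7.71 and 9.47 in ATG7 KO and at 8.04, 7.96 and 8.44 in ATG7/SQSTM1 KO. The knockouts overlapped each other and not the control. It was 3.00-fold higher in ATG7 KO (log2 change 1.58, SE 0.12, adjusted p = 4.04e-10) and 2.87-fold higher in ATG7/SQSTM1 KO (log2 change 1.52, adjusted p = 3.12e-09). The difference between the knockouts was −0.06, with a 95% confidence interval of −0.29 to 0.18. CRIM1, a membrane protein that binds growth factors of the BMP family, stood at 27.7, 29.2 and 27.9 CPM in control, at 47.0, 47.7 and 47.7 in ATG7 KO and at 44.3, 42.2 and 42.6 in ATG7/SQSTM1 KO. It was 1.68-fold higher in ATG7 KO (adjusted p = 2.14e-12) and 1.52-fold higher in ATG7/SQSTM1 KO (adjusted p = 3.38e-10), with a small difference of −0.14 between them (adjusted p = 5.2e-03). AJUBA, a LIM protein that also binds LATS kinases, averaged 24.0, 31.3 and 27.3 CPM and was 1.30-fold and 1.14-fold higher (adjusted p = 5.36e-06 and 0.0127). The call in the double knockout was lost without control replicate 1 (adjusted p = 0.0576) and without ATG7/SQSTM1 KO replicate 1 (adjusted p = 0.0657).

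A second set of targets was high in ATG7 KO and near the control level in the double knockout. NT5E, which encodes the cell-surface nucleotidase CD73, stood at 2.74, 2.20 and 2.85 CPM in control, at 9.71, 9.88 and 9.66 in ATG7 KO and at 1.66, 2.40 and 2.39 in ATG7/SQSTM1 KO. The ATG7 KO libraries stood apart, and the double knockout overlapped control. NT5E was 3.74-fold higher in ATG7 KO than in control (log2 change 1.90, SE 0.14, adjusted p = 2.24e-10) and 4.55-fold lower in the double knockout than in ATG7 KO (log2 change −2.19, SE 0.15, adjusted p = 2.71e-11). Against control the double knockout differed by −0.28 (95% confidence interval −0.60 to 0.04).

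F3, the gene of tissue factor, stood at 6.10, 4.96 and 5.34 CPM in control, at 13.6, 11.9 and 11.8 in ATG7 KO and at 5.94, 6.04 and 6.46 in ATG7/SQSTM1 KO. Double knockout and control overlapped, and ATG7 KO was above both. F3 was 2.27-fold higher in ATG7 KO than in control (adjusted p = 1.97e-09) and 2.02-fold lower in the double knockout than in ATG7 KO (adjusted p = 1.49e-08). NUAK2, a kinase of the AMPK family, stood at 3.26, 3.24 and 3.36 CPM in control, at 6.89, 7.84 and 6.12 in ATG7 KO and at 3.67, 3.57 and 4.46 in ATG7/SQSTM1 KO. It was 2.11-fold higher in ATG7 KO than in control (adjusted p = 4.74e-07) and 1.78-fold lower in the double knockout than in ATG7 KO (adjusted p = 1.06e-05). Its 3 groups did not overlap, and the difference of 0.25 between the double knockout and control did not pass the test (adjusted p = 0.17).

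MYOF, a membrane protein of vesicle fusion, stood at 41.4, 43.3 and 41.6 CPM in control, at 67.3, 72.2 and 70.8 in ATG7 KO and at 37.5, 37.2 and 39.9 in ATG7/SQSTM1 KO. The double knockout was the lowest group and ATG7 KO the highest. MYOF was 1.66-fold higher in ATG7 KO than in control (adjusted p = 2.35e-12) and 1.83-fold lower in the double knockout than in ATG7 KO (adjusted p = 1.35e-13). Its difference of −0.14 from control in the double knockout (adjusted p = 0.0134) was lost without control replicate 2 or ATG7/SQSTM1 KO replicates 1 or 2 (adjusted p = 0.0611 to 0.068). GADD45B, a stress-induced growth arrest gene, averaged 3.08, 5.12 and 3.84 CPM and was 1.66-fold higher in ATG7 KO (adjusted p = 2.1e-04). In the double knockout its difference of 0.31 from control (adjusted p = 0.102) became a call without control replicate 1 (adjusted p = 0.0451). That of −0.41 from ATG7 KO (adjusted p = 0.0167) was lost without ATG7 KO replicate 1 (adjusted p = 0.1).

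The remaining 4 targets were not called higher in ATG7 KO than in control. DLC1, known as a tumour suppressor, stood at 13.5, 14.2 and 13.4 CPM in control, at 4.26, 4.46 and 4.34 in ATG7 KO and at 9.90, 10.7 and 9.23 in ATG7/SQSTM1 KO. No groups overlapped, and the order was that of AMOTL1. It was 3.14-fold lower in ATG7 KO (log2 change −1.65, SE 0.090, adjusted p = 1.15e-12), 1.38-fold lower in ATG7/SQSTM1 KO (adjusted p = 1.45e-04) and 2.29-fold higher in the double knockout than in ATG7 KO (adjusted p = 2.6e-10).

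ARHGEF17, a guanine nucleotide exchange factor, stood at 74.8, 75.2 and 72.5 CPM in control, at 60.8, 62.5 and 62.0 in ATG7 KO and at 77.0, 71.7 and 71.1 in ATG7/SQSTM1 KO. It was 1.2-fold lower in ATG7 KO than in control (adjusted p = 4.02e-06), and double knockout and control overlapped (95% confidence interval −0.10 to 0.06), while the knockouts differed by 0.25 (adjusted p = 8.1e-06). FJX1, a secreted factor related to the fly gene four-jointed, was lowest in the double knockout, at 15.7, 15.7 and 14.2 CPM, against 18.2, 20.1 and 19.0 in control and 20.1, 20.1 and 19.0 in ATG7 KO. It was 1.25-fold lower than control there (adjusted p = 4.92e-04) and 1.30-fold lower than ATG7 KO (adjusted p = 4.67e-05). RBMS3, an RNA-binding protein, averaged 6.80, 7.58 and 9.06 CPM and was 1.33-fold higher in the double knockout than in control (adjusted p = 2.16e-03). Its difference of 0.15 in ATG7 KO (adjusted p = 0.202) was a call without control replicate 1 (adjusted p = 0.0399). Its difference of 0.26 between the knockouts (adjusted p = 0.0291) was lost without any 1 of the 6 knockout libraries (adjusted p = 0.0521 to 0.0891), with no low-count filter (adjusted p = 0.0573) and in DESeq2 (adjusted p = 0.0827).

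**Figure D5:**
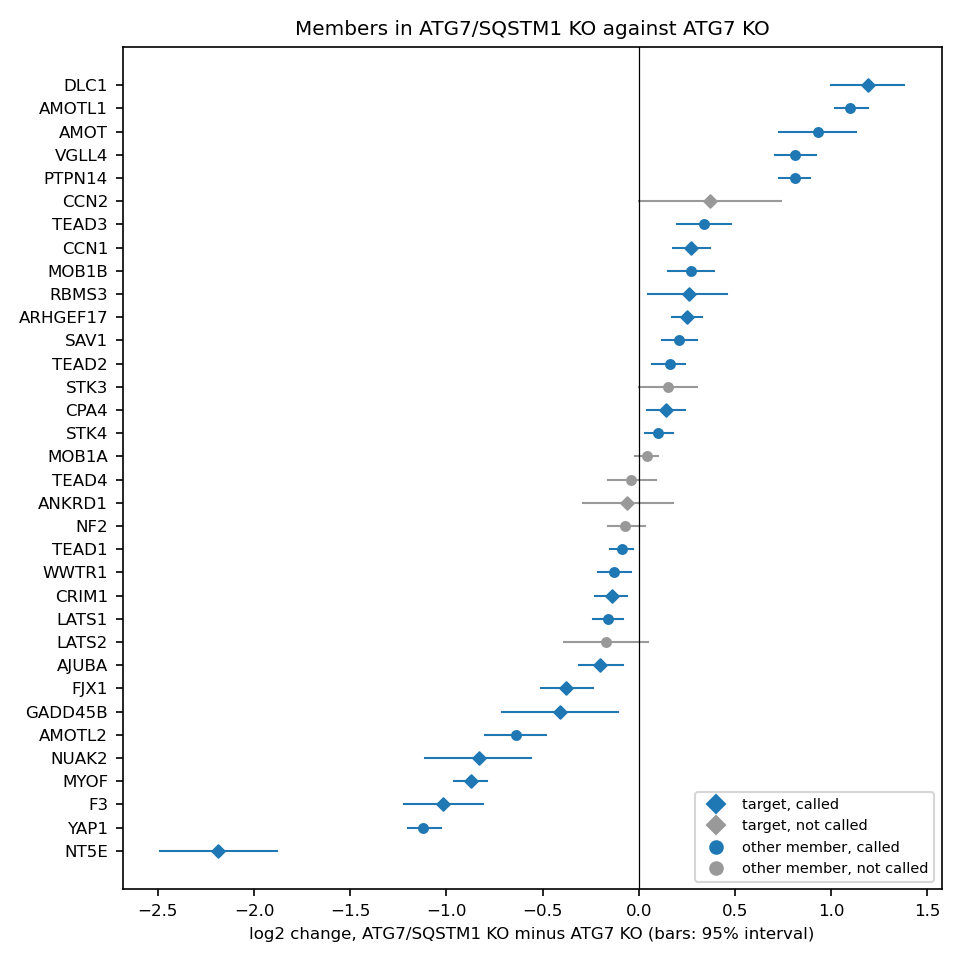
Points give the log2 change of each member in ATG7/SQSTM1 KO against ATG7 KO with its 95% confidence interval (horizontal axis), diamonds for targets and circles for the other members, in blue where the adjusted p is under 0.05 and grey where it is not. NT5E and YAP1 are the lowest 2 and DLC1 and AMOTL1 the highest 2, while CCN1 and CPA4 lie a little above 0 and ANKRD1 at −0.06.

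Over the 34 members, the mean of the double knockout lay between control and ATG7 KO with ATG7 KO highest in 10 and with control highest in 3. In 8 members ATG7 KO was lowest and the double knockout highest, and in 6 the double knockout was lowest and ATG7 KO highest. In another 6 control was lowest and the double knockout highest, and in 1, TEAD4, control was highest and the double knockout lowest. These orders are of group means and take no account of error. They were not counted over all tested genes, so whether the members differ from other genes in them was not tested.

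Other genes of the pathway, from a list of 51 that excludes the members, gave 46 with enough counts to test. CRB3, VGLL1, VGLL2, VGLL3 and AREG were not tested. In ATG7 KO against control 21 were higher and 12 lower, which scaling by library totals made 18 and 16. The share called was 71.7%, beside 56.7% of all genes. In ATG7/SQSTM1 KO against control 18 were higher and 11 lower (63.0%, beside 38.6%), and between the knockouts 14 were higher and 17 lower (67.4%, beside 60.5%), or 15 and 13 by library totals. Of the 33 tested regulators 12 were higher and 8 lower in ATG7 KO against control (60.6%), a share near that of all genes. In ATG7/SQSTM1 KO against control 9 were higher and 8 lower (51.5%, beside 38.6% of all genes). Between the knockouts 9 were higher and 11 lower (60.6%, beside 60.5%). TAOK3, a kinase upstream of STK3 and STK4, averaged 11.5, 22.3 and 12.3 CPM in control, ATG7 KO and ATG7/SQSTM1 KO, a 1.93-fold rise in ATG7 KO (adjusted p = 2.78e-10). FAT4, a large cadherin, averaged 8.88, 22.8 and 12.2 CPM and was 2.57-fold higher in ATG7 KO (adjusted p = 6.85e-09). MAP4K4, a kinase that can act on LATS in place of STK3 and STK4, followed PTPN14 in its order, at 183, 151 and 226 CPM (log2 change −0.27 and 0.31 against control, adjusted p = 8.59e-08 and 4.66e-08). STRN4 and SIKE1, parts of the STRIPAK phosphatase complex that acts against STK3 and STK4, were higher in the double knockout than in control by 0.38 and 0.26 on the log2 scale (adjusted p = 7.09e-09 and 4.1e-06). In ATG7 KO against control STRN4 was also higher, by 0.28 (adjusted p = 1.76e-07), and SIKE1 was not called (log2 change −0.07, adjusted p = 0.0928). STK38, a kinase related to LATS, was lower in the double knockout than in ATG7 KO (log2 change −0.37, adjusted p = 1.13e-07).

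Of the 13 further targets tested 9 were higher and 4 lower in ATG7 KO, 9 higher and 3 lower in ATG7/SQSTM1 KO, and 5 higher and 6 lower between the knockouts (all 13, then 92.3% and 84.6% called, beside 56.7%, 38.6% and 60.5% of all genes). AXL, a receptor kinase, averaged 17.9, 55.0 and 21.6 CPM, with a 3.07-fold rise in ATG7 KO (adjusted p = 1.31e-15) and a 2.55-fold lower level in the double knockout than in ATG7 KO (adjusted p = 1.88e-14). THBS1 at 67.0, 143 and 71.6 CPM and CCDC80 at 13.2, 38.2 and 16.2 CPM, both genes of matrix proteins, ranked likewise. TGFB2 was highest in the double knockout, at 22.4, 28.6 and 39.1 CPM (1.75-fold above control, adjusted p = 7.56e-11), and CAV1, the gene of caveolin, was lowest there, at 46.8, 57.6 and 28.5 CPM (1.64-fold below control, adjusted p = 2.18e-10). FOXF2, a forkhead factor, averaged 26.3, 12.3 and 18.4 CPM, and was lower than control by a log2 change of −1.10 in ATG7 KO (adjusted p = 6.25e-11) and of −0.52 in the double knockout (adjusted p = 8.29e-06).

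Markers of the neuroendocrine and non-neuroendocrine states of small cell lung cancer also differed between the groups. The 8 neuroendocrine markers summed to 431 to 441 CPM in the control libraries, 155 to 157 in ATG7 KO and 447 to 463 in ATG7/SQSTM1 KO. All 8 were lower in ATG7 KO than in control and higher in the double knockout than in ATG7 KO, and 3 were higher and 3 lower in the double knockout than in control. NEUROD1 averaged 194, 73.2 and 237 CPM. The 6 non-neuroendocrine markers, AXL among them, summed to 618 to 628 CPM, 1022 to 1066 and 650.1 to 684. All 6 were higher in ATG7 KO than in control and lower in the double knockout than in ATG7 KO. In the double knockout against control 4 were higher and 1 was lower. Over all genes 28.4% were called higher and 28.3% lower in ATG7 KO against control. Those shares were 19.0% and 19.6% in the double knockout against control, and 30.5% and 29.9% between the knockouts. The part of either marker list in the members' differences was not tested. In bulk RNA such as this, a change in the share of cells of a type and a change of RNA per cell cannot be told apart.

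Markers of other cell types were checked in the same way. The 10 fibroblast markers summed to 201 to 218 CPM in control, 744 to 786 in ATG7 KO and 455 to 476 in ATG7/SQSTM1 KO, with 6 of 9 tested higher in ATG7 KO and 7 higher and 1 lower in the double knockout, each against control. The collagens and LUM carried most of that sum in ATG7 KO. POSTN averaged 16.6, 81.4 and 120.4 CPM and DCN 7.49, 21.2 and 32.6, both highest in the double knockout, and PDGFRA averaged 2.29, 2.23 and 5.00. PDGFRB averaged 0.842, 1.08 and 0.613 CPM and THY1 0.0967, 0.165 and 0.0318. The part of this list in the results was not tested. The 8 blood markers summed to 5.24 to 5.96 CPM in control, 9.47 to 10.5 in ATG7 KO and 3.36 to 4.28 in ATG7/SQSTM1 KO, with 3 of 4 tested higher and 1 lower in ATG7 KO than in control and CD3E, LYZ and HBB at 0 in all libraries. The 7 endothelial markers summed to 2.91 to 3.29, 5.03 to 6.15 and 1.69 to 2.94 CPM, with 4 of 5 tested higher in ATG7 KO than in control. The 5 airway and squamous markers summed to 3.05 to 3.61, 9.31 to 9.42 and 2.71 to 2.93 CPM, with SCGB1A1 at 0 and TP63 making up most of the sum in ATG7 KO. The part of these lists in the results was not tested either.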

How the data were processed

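RNA from 9 DMS273 libraries was sequenced. Per the labels' protocols, 400 ng of total RNA was depleted of rRNA and made into strand-specific libraries with 12 PCR cycles. The submitters' processing notes name HISAT2 and hg38. Which program counted the reads, with which annotation and strand setting, is not given in the sources used here. Values that the authors deposited are whole-number counts per gene, not normalized as far as the values show. Missing cells (362598, with no cell at 0) were read as 0.

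Groups follow the sample titles. Tests used edgeR 4.0.16 under R 4.3.3 (filterByExpr with a minimum count of 10, TMM factors 0.977 to 1.01, robust quasi-likelihood fit of all 9 libraries, 6 residual degrees of freedom), adjusted by Benjamini-Hochberg over 18847 genes at 0.05. The common biological coefficient of variation was 6.39%, and counts of replicates differed by more than sampling alone gives (chi-square per degree of freedom 4.47 to 7.03). Levels are CPM from TMM-scaled totals, and CPM per kb uses the union of exons in GENCODE release 29 (GRCh38). Promoters are from RefSeq. Scripts were tested on simulated counts.

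Members and lists were chosen with earlier results of these data known. Any member may be named; other genes are named as the up to 4 of each list with the smallest p in a comparison, the 4 tested protein-coding neighbours on each side of YAP1, ATG7 and SQSTM1, and marker genes. Some genes this rule names are not reported here. The alternatives tried were DESeq2 1.42.0, scaling by relative log expression or by library totals, testing every gene with a count or those with a mean of at least 1 CPM, fitting the 6 libraries of a comparison alone, a replicate block, and leaving out each library in turn.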

Additional observations from a re-analysis of the deposited data

How the results depend on the processing

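Under the 16 alternatives the numbers of members and of listed pathway genes called stayed within 1.5 times in all 3 comparisons and both directions. Of 102 member results (34 genes in 3 comparisons) 76 kept their direction and side of the threshold under all 16. With 1 library left out, members called higher and lower ranged over 16 to 18 and 7 to 9 in ATG7 KO against control, 15 to 17 and 4 to 6 in ATG7/SQSTM1 KO against control, and 11 to 14 and 12 to 13 between the knockouts. DESeq2 gave 17 and 7, 15 and 6, and 11 and 13, and library totals 15 and 10, 16 and 6, and 16 and 11. Same-numbered libraries of different groups did not deviate together (correlations −0.061 to 0.023), so the numbers were not taken to pair them; with a replicate block the members called were 17 and 9, 17 and 6, and 14 and 13, and all 102 member results kept their call. Among results that were not called, the sign turned under library totals for TEAD4 between the knockouts (0.002) and for LATS1 in ATG7 KO against control (−0.028). With 1 library left out it also turned in that comparison for LATS1 (−0.008 to 0.035), MOB1A (−0.04 to 0.021) and CNTN5 (−0.477 to 0.671), for ANKRD1 between the knockouts (−0.134 to 0.019) and for ARHGEF17 in ATG7/SQSTM1 KO against control (−0.05 to 0.001). The cause was not tested. At this depth CCN2, at 1.41 to 2.98 CPM, had the largest standard error among the members (0.18).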
